A study of Bos taurus with 16 samples.

Results

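The miR-30 family was measured by 7 of the 204 miRNA probes in a table from the bovine corpus luteum, the gland that forms on the ovary after ovulation and makes the progesterone of pregnancy. The members were taken by probe name. They were the 5 probes for the 5p arms of miR-30a, miR-30b, miR-30c, miR-30d and miR-30e, and the 2 probes for the 3p arms of miR-30a and miR-30e. The glands came from 16 pregnant cattle in 4 groups of 4, taken 14, 17, 20 or 23 days after they were bred, and NanoString colour-coded probes counted the miRNAs in 2 runs that each held 2 samples of every day. Per the series' design text, the animals were mated at estrus and later inseminated as well, and those not found pregnant were left out. Every group was therefore pregnant, there was no cyclic or untreated group, and breed and age are not given in the labels. A day is a different set of animals, so differences between days are also differences between animals.

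MicroRNAs are short RNAs that guide Argonaute proteins to messenger RNAs and lower their translation and stability. The 5p arms of the miR-30 family share a seed, the short stretch that pairs with targets, so its members can act on overlapping sets of messenger RNAs. Each precursor hairpin can also release a 3p arm, which has a different seed, and the 5p arm is usually the one retained. In human endothelial cells and in zebrafish, miR-30 members act on DLL4, a Notch ligand that restrains vessel sprouting, and in human cells miR-30a acts on BECN1, an autophagy gene. The corpus luteum is a densely vascular gland.

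The bovine genes lie in pairs. In the RefSeq table of the ARS-UCD2.0 assembly MIR30C stands next to MIR30E on chromosome 3, and MIR30D stands next to MIR30B on chromosome 14. By order of gene starts the chromosome 3 pair follows NFYC and precedes RIMS3. Gene ends were not compared, so whether the pair lies within a gene was not tested. MIR30A is the miRNA gene after MIR30F on chromosome 9, and miR-30f was not analysed here. Mature sequences and coordinates are not printed, because no miRNA sequences or genome were used here. The probes carry human names, and how far signal is shared between probes for similar members was not measured.

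The values are the authors' normalized counts. They ran from 12.03 to 132328 over the table, and totals per sample were 373847 to 536516 in run 2 and 175197 to 331164 in run 1. The number of molecules counted is unknown. A further 38 probes had no bovine gene of the same name or number, and their median per sample averaged 57.5 in run 2 (40.4 to 88.8) and 160 in run 1 (124 to 258, the highest in day 14 replicate 1). Those medians are used below as a measure of low-level signal. In run 1 they were not a floor of the table, because the median of all probes there was 169 to 197 per sample. In day 14 replicate 1 the 258 exceeded the median of all probes, 174, and that of probes with a bovine gene of the same name, 177. A run 1 value below such a median can therefore lie near the middle of the table. The share of all probes below it was not counted. Endothelial miR-126-3p had 7318 to 29618 normalized counts, the 4 measured of 6 blood cell miRNAs summed to 615 to 4969, the 4 smooth muscle, pericyte and fibroblast miRNAs to 3623 to 16096, and epithelial miR-141-3p, the 1 measured of 5, had 37.1 to 87.3. None of these measured markers was at 0 or was called by day slope, and 1 blood cell miRNA had an unadjusted p under 0.05. No list held a miRNA that defines luteal cells, so the labelled tissue was not checked further.

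The 5p arms were present at moderate, similar levels, and the 3p arms were lower. Over the 16 samples miR-30b-5p averaged 349 ± 129 normalized counts (SD, n = 16), miR-30d-5p 341 ± 165, miR-30c-5p 315 ± 107, miR-30a-5p 312 ± 156 and miR-30e-5p 244 ± 58.4. miR-30a-3p averaged 79.6 ± 32.0 and miR-30e-3p 60.3 ± 20.1. By mean value the 5p arms ranked 82 to 94 among the 204 probes and the 3p arms 153 and 163. The 5 5p arms summed to 0.330% to 0.635% of a sample's total, with a mean of 0.449% ± 0.081 (SD, n = 16). In run 2 every 5p arm lay above the median of probes with no bovine gene in 8 of 8 samples, as did miR-30a-3p, and miR-30e-3p did in 4 of 8. In run 1 only miR-30e-5p did so in 8 of 8 samples. miR-30b-5p did so in 7, miR-30c-5p in 6, miR-30a-5p and miR-30d-5p in 5, and both 3p arms in 0. For miR-30a-5p and miR-30d-5p the 3 run 1 samples below it were both day 14 samples and day 17 replicate 2.

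**Figure D1:**
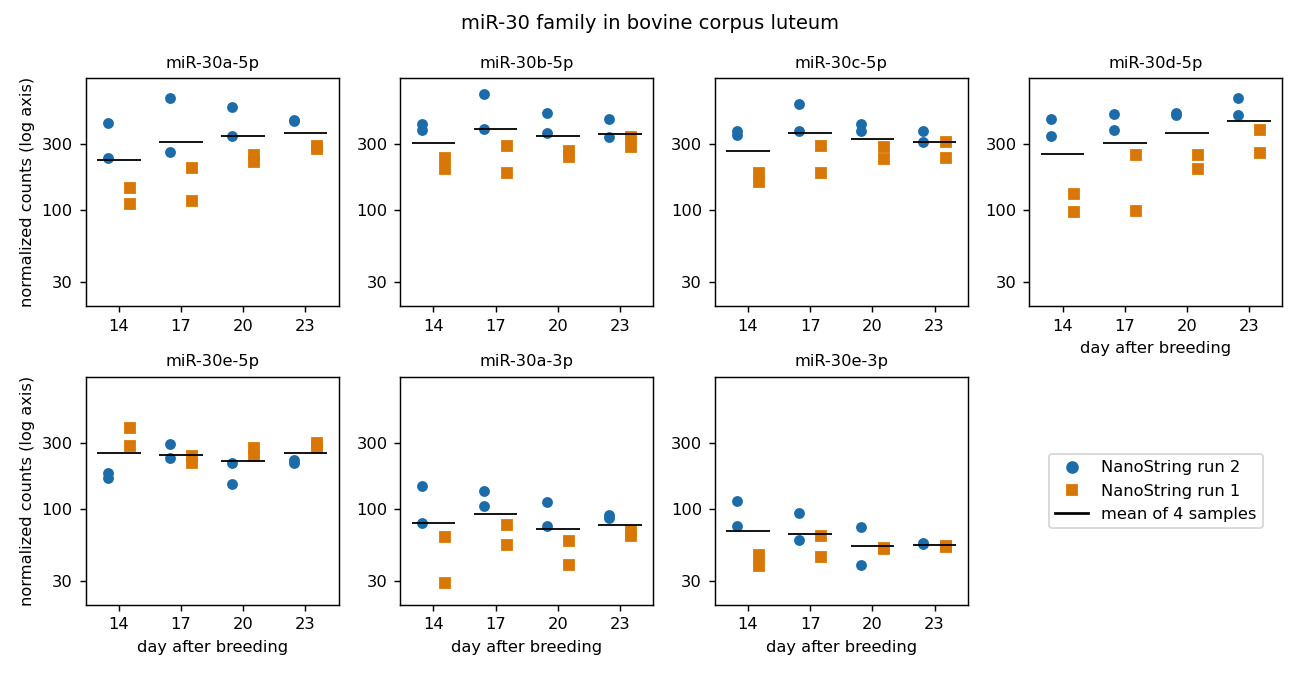
Normalized counts (log axis) of each miR-30 probe by day after breeding. Circles are run 2, squares run 1 and lines the mean of 4 samples. The 3p arms lie below the 5p arms, and run 2 lies mostly above run 1 except for miR-30e-5p.

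The order of the family's levels was set by the mean log2 value, log2(normalized count + 1). It ran miR-30b-5p at 8.37, miR-30c-5p at 8.23, miR-30d-5p at 8.21, miR-30a-5p at 8.11, miR-30e-5p at 7.90, miR-30a-3p at 6.22 and miR-30e-3p at 5.88. Probe efficiency is not removed from such an order. Of the 6 pairs of neighbours, 3 differed by an exact two-sided sign-flip permutation over samples, adjusted over the 6. miR-30b-5p exceeded miR-30c-5p by 0.14 log2 units (SD 0.18, higher in 12 of 16 samples, adjusted exact p = 0.0128). miR-30e-5p exceeded miR-30a-3p by 1.68 (SD 0.83, higher in 16 of 16, adjusted exact p = 0.000183). miR-30a-3p exceeded miR-30e-3p by 0.35 (SD 0.37, higher in 14 of 16, adjusted exact p = 0.0095). The neighbours from miR-30c-5p to miR-30e-5p did not differ beyond their spread (adjusted exact p = 0.913, 0.328 and 0.442). After subtraction of the low-level median, with values left under 1 set to 1, the gap of miR-30b-5p over miR-30c-5p was 0.43 and no longer called (higher in 11 of 16, adjusted exact p = 0.0555). The gaps of miR-30e-5p over miR-30a-3p and of miR-30a-3p over miR-30e-3p were 4.08 and 0.87 and still called (higher in 16 of 16 and 8 of 16, adjusted exact p = 0.000183 and 0.0234). Both 3p arms were set to 1 in every run 1 sample. The second gap therefore rests on run 2 alone, and the size of the first is partly set by that floor. With the subtraction miR-30a-5p minus miR-30e-5p turned to -0.52, against 0.22 without it (adjusted exact p = 0.520 with the subtraction).

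The place of miR-30e-5p in this order depended on the run. In run 2 it was the lowest of the 5p arms, 0.91 log2 units below miR-30c-5p and lower in 8 of 8 samples (adjusted exact p = 0.0156). In run 1 it was the highest by mean, 0.12 above miR-30b-5p and higher in 4 of 8 samples (adjusted exact p = 0.609). In run 2 miR-30d-5p led, and in run 1 it was the lowest 5p arm, 0.018 below miR-30a-5p (adjusted exact p = 0.828). With run 1 alone 1 of the 6 pairs that are neighbours in the order over 16 samples was called, that of miR-30e-5p over miR-30a-3p. In the order of run 1 itself the 1 pair called was miR-30d-5p over miR-30a-3p (adjusted exact p = 0.0469).

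Over the 4 days miR-30d-5p and miR-30a-5p had the steepest slopes of the family, and no member passed the adjusted threshold. Day 14 values of miR-30d-5p were 342 and 455 normalized counts in run 2 and 95.6 and 131 in run 1, and day 17 values were 380 and 497 in run 2 and 251 and 97.7 in run 1. Day 20 values were 484 and 507 in run 2 and 248 and 199 in run 1, and day 23 values were 491 and 647 in run 2 and 260 and 377 in run 1. Run 2 samples were higher on every day, and all pairs of days overlapped. Day means were 256 ± 172, 306 ± 171, 360 ± 158 and 444 ± 165 (SD, n = 4 each) on days 14, 17, 20 and 23.

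miR-30a-5p, whose hairpin lies on another chromosome, had a similar course. Its day 14 values were 239.8 and 430.2 in run 2 and 111 and 144 in run 1, and its day 17 values were 265 and 654 in run 2 and 202 and 116 in run 1. Its day 20 values were 345 and 557 in run 2 and 251 and 221 in run 1, and its day 23 values were 446 and 439.9 in run 2 and 275 and 289 in run 1. The highest sample was day 17 replicate 4, and the days overlapped in every pair. Day means were 231 ± 143, 309 ± 238, 343 ± 151 and 363 ± 93.1 (SD, n = 4 each).

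As a linear slope with run held, miR-30d-5p had 0.11 log2 units per day (SE 0.030, adjusted p = 0.0738 by limma) and miR-30a-5p 0.092 (SE 0.031, adjusted p = 0.0830). The exact permutation of day labels within runs gave p = 0.0011 for miR-30d-5p and p = 0.0139 for miR-30a-5p, or 0.0753 and 0.138 when adjusted over all probes. In all, 0 of 7 members were called by limma, against 0.49% of all probes. At an unadjusted p under 0.05 there were 2 of 7 by limma, against 23.5% of all probes, and the same 2 by the exact permutation, against 21.1%. Across the 4 days as a factor 0 of 7 were called (0% of all probes), with adjusted p = 0.484 for miR-30d-5p and 0.499 for miR-30a-5p, and 1 of 7 had an unadjusted p under 0.05, against 8.33% of all probes. A change in the share of a cell type and a change in RNA per cell cannot be told apart in these whole-gland samples.

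The slope calls depended on the scaling and on the run. With each sample centred on its median both slopes were called (miR-30d-5p 0.12, adjusted p = 0.0306, and miR-30a-5p 0.100, adjusted p = 0.0348, by limma), as they were after quantile normalization and with run 1 alone. Of all 204 probes, 20 were called with median centring, 9 after quantile normalization and 9 with run 1 alone. The fit of all 16 samples without such scaling called 1. Leaving out day 14 replicate 4 or day 23 replicate 3 also brought miR-30d-5p under the threshold (adjusted p = 0.0293 and 0.0353). In those fits 9 and 11 of all 204 probes were called by slope. With run 2 alone the slopes were 0.058 for miR-30d-5p and 0.049 for miR-30a-5p, against 0.16 and 0.14 with run 1 alone, where the day 14 samples lay below the low-level median. Subtracting that median moved the slopes over both runs to 0.39 and 0.38 (adjusted p = 0.142 for both). The subtraction set both members to 1 in the run 1 day 14 samples and in day 17 replicate 2. The sizes of these slopes rest partly on that floor. The test of the difference in slope between runs gave adjusted p = 0.310 for miR-30d-5p and 0.404 for miR-30a-5p by limma, and 0 of 7 members were called (0% of all probes).

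The remaining 5p arms had shallow slopes. miR-30b-5p lay between 197 and 417 normalized counts on day 14, 184 and 693 on day 17, 244 and 507 on day 20, and 287 and 457 on day 23. miR-30c-5p lay between 159 and 375 on day 14, 185 and 586 on day 17, 235 and 417 on day 20, and 237 and 377 on day 23. For both, day 17 replicate 4 was the highest of the 16 samples. Their slopes were 0.023 log2 units per day (SE 0.027, adjusted p = 0.702 by limma) for miR-30b-5p and 0.028 (SE 0.027, adjusted p = 0.612) for miR-30c-5p, and both were below 0 with run 2 alone (-0.011 and -0.017).

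miR-30e-5p had a slope close to 0. Its day 14 values were 167 and 181 normalized counts in run 2 and 387 and 283 in run 1, and its day 17 values were 234 and 294 in run 2 and 215 and 242 in run 1. Its day 20 values were 150.1 and 215 in run 2 and 243 and 273 in run 1, and its day 23 values were 224 and 216 in run 2 and 277 and 298 in run 1. The widest gap between the runs was on day 14, where both run 1 samples exceeded both run 2 samples. Its slope was 0.00036 log2 units per day (SE 0.026, adjusted p = 0.989 by limma).

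The 3p arms sloped little. miR-30a-3p had 79.0 and 147 normalized counts in run 2 and 28.7 and 61.6 in run 1 on day 14, and 84.7 and 90.2 in run 2 and 62.9 and 68.6 in run 1 on day 23. Its slope was 0.0033 log2 units per day (SE 0.032, adjusted p = 0.989 by limma). miR-30e-3p had 75.3 and 114 in run 2 and 38.4 and 45.8 in run 1 on day 14, and 55.8 and 55.2 in run 2 and 53.3 and 52.2 in run 1 on day 23. The SD over its samples was 1.68 normalized counts on day 23 and 34.4 on day 14 (n = 4 each). Its slope was -0.029 (SE 0.030, adjusted p = 0.623), with -0.089 in run 2 alone and 0.031 in run 1 alone. The test of that difference between runs had an unadjusted p of 0.0367 and an adjusted p of 0.267 by limma. It was the 1 member of 7 with an unadjusted p under 0.05 in that test, against 17.2% of all probes.

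**Figure D2:**
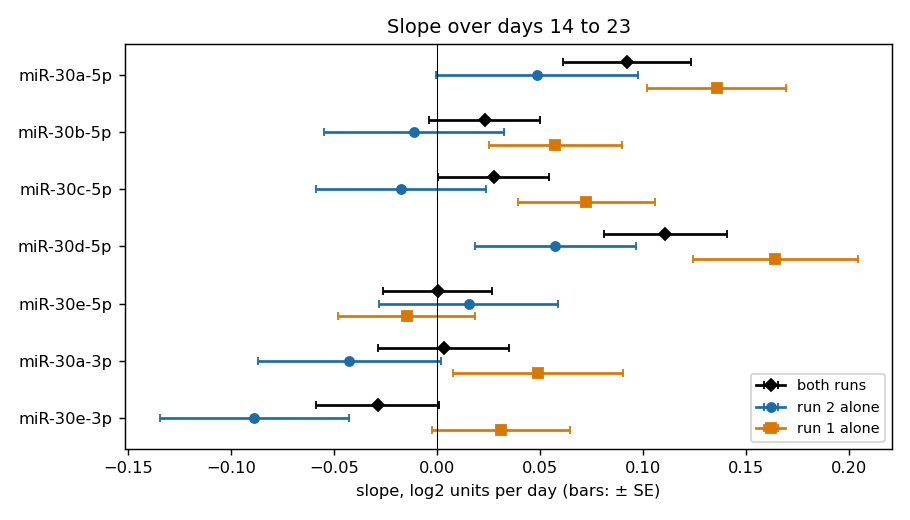
Slope of each miR-30 probe in log2 units per day, with bars of ± SE, for both runs together, run 2 alone and run 1 alone. miR-30d-5p and miR-30a-5p lie farthest above 0, and the slopes from run 1 exceed those from run 2 for every probe except miR-30e-5p.

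Day 23 against day 14 spanned the whole interval. The mean of miR-30d-5p was 444 ± 165 normalized counts on day 23 and 256 ± 172 on day 14 (SD, n = 4 each). The difference of its mean log2 values was 0.99 (SE 0.30, adjusted p = 0.0993 by limma), a 1.99-fold ratio of geometric means. The mean of miR-30a-5p was 363 ± 93.1 on day 23 and 231 ± 143 on day 14. The difference of its mean log2 values was 0.81 (SE 0.31, adjusted p = 0.143), a 1.75-fold ratio of geometric means. Both were larger in run 1, with 0.51 in run 2 and 1.48 in run 1 for miR-30d-5p, and 0.46 in run 2 and 1.15 in run 1 for miR-30a-5p. Both day 14 samples of run 1 lay below the median of probes with no bovine gene for these 2 members, so the run 1 values rest on signal below that median. Subtracting that median moved the differences over both runs to 3.44 for miR-30d-5p and 3.30 for miR-30a-5p (adjusted p = 0.228 for both by limma). The subtraction set those run 1 day 14 values to 1, so the sizes of these differences rest partly on that floor. Within each run both day 23 samples lay above both day 14 samples for these 2 members, which was so for 7.35% of all probes. Over both runs no member had day 23 samples wholly above or below its day 14 samples, against 0.98% of all probes in each direction.

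The other 5 members were not called for day 23 against day 14 either. The log2 differences were 0.29 for miR-30c-5p (SE 0.26), 0.25 for miR-30b-5p (SE 0.27), 0.17 for miR-30a-3p (SE 0.30), 0.07 for miR-30e-5p (SE 0.26) and -0.20 for miR-30e-3p (SE 0.29), with adjusted p from 0.564 to 0.953 by limma. For miR-30e-3p both day 23 samples lay below both day 14 samples in run 2 and above them in run 1, a pattern shared by 10.3% of all probes. In all, 0 of 7 members were called (0.49% of all probes), 2 of 7 had an unadjusted p under 0.05 (21.1% of all probes), and the median difference was 0.25 for the 7 members and 0.00096 for all probes. The call count was 1 with each sample centred on its median, where miR-30d-5p had an adjusted p of 0.0343, and 2 with run 1 alone. Of all 204 probes, 6 were called with median centring and 40 with run 1 alone. Without day 23 replicate 3 miR-30d-5p had 1.16 (adjusted p = 0.0462), and 10 of all 204 probes were called.

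No member was called for the other pairs of days, where 0% of all probes were called too. For day 20 against day 14 the log2 difference was 0.67 for miR-30a-5p (SE 0.31) and 0.66 for miR-30d-5p (SE 0.30), both with adjusted p = 0.679 by limma. These 2 members had an unadjusted p under 0.05, as did 6.37% of all probes. For day 17 against day 14 all 7 differences were above 0, as were 51.5% of all probes, and ran from 0.0065 to 0.40 (adjusted p from 0.963 to 0.989). None had an unadjusted p under 0.05 there, against 2.45% of all probes. For day 23 against day 17 miR-30d-5p had 0.68 (SE 0.30, adjusted p = 0.396), which was 0.41 without day 17 replicate 2, and it was the 1 member of 7 with an unadjusted p under 0.05, against 11.8% of all probes. For day 23 against day 20 differences ran from -0.066 to 0.34, and 0 of 7 had an unadjusted p under 0.05, against 4.9% of all probes. For day 20 against day 17 they ran from -0.40 to 0.35, and 0 of 7 had an unadjusted p under 0.05, against 0.49% of all probes. These comparisons share samples with each other and with the one above.

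Within-sample ratios compared the 5p members with each other, because a factor that multiplies a whole sample drops out of them. Pairs of miR-30a-5p or miR-30d-5p with miR-30b-5p, miR-30c-5p or miR-30e-5p had the steeper slopes, in favour of miR-30a-5p and miR-30d-5p on the later days. All 6 of those pairs had an unadjusted p under 0.05 by limma and none of the other 4 did, against 22.9% of all 20706 probe pairs in the table. Adjusted over those 20706, 0 of the 10 were called, against 2.22% of all probe pairs. The exact permutation within runs gave p under 0.05 for the same 6 of 10, against 22.6% of all probe pairs, and called 0, against 2.56%. The members' levels had been seen before, and the ratios restate the same values without the scale of each sample.

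The ratio of miR-30b-5p to miR-30d-5p, whose genes are neighbours, moved most clearly among pairs without miR-30e-5p. Over days 14, 17, 20 and 23 its mean log2 values were 0.48 ± 0.59, 0.41 ± 0.38, -0.0047 ± 0.30 and -0.26 ± 0.47 (SD, n = 4 each). The slope was -0.088 per day (SE 0.032, adjusted p = 0.107 by limma; exact permutation p = 0.0033, adjusted 0.0723), with -0.069 in run 2 alone and -0.11 in run 1 alone. miR-30b-5p thus exceeded miR-30d-5p by mean on days 14 and 17 and was lower on day 23, and the samples of the days overlapped.

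Similar values were found for the other pairs of these 4 members. miR-30c-5p minus miR-30d-5p had a slope of -0.083 (SE 0.032, adjusted p = 0.128 by limma; -0.075 in run 2 alone and -0.092 in run 1 alone). miR-30a-5p minus miR-30b-5p had day means of -0.54 ± 0.48, -0.46 ± 0.26, -0.042 ± 0.12 and 0.013 ± 0.26 in the same order (SD, n = 4 each). Its slope was 0.069 (SE 0.030, adjusted p = 0.166; exact permutation p = 0.0038, adjusted 0.0754), with 0.060 in run 2 alone and 0.078 in run 1 alone. miR-30a-5p minus miR-30c-5p had 0.065 (SE 0.031, adjusted p = 0.215). By contrast miR-30a-5p minus miR-30d-5p had -0.019 (SE 0.031, adjusted p = 0.767) and miR-30b-5p minus miR-30c-5p -0.0044 (SE 0.028, adjusted p = 0.947).

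Ratios to miR-30e-5p were the widest. miR-30d-5p minus miR-30e-5p had means of -0.19 ± 1.63, 0.094 ± 0.96, 0.62 ± 1.00 and 0.74 ± 0.75 over days 14, 17, 20 and 23 (SD, n = 4 each). Its slope was 0.11 per day (SE 0.040, adjusted p = 0.110 by limma), with 0.042 in run 2 alone and 0.18 in run 1 alone. miR-30a-5p minus miR-30e-5p had 0.092 (SE 0.037, adjusted p = 0.146), with 0.033 in run 2 alone and 0.15 in run 1 alone. miR-30c-5p minus miR-30e-5p, whose genes are neighbours, had 0.027 (SE 0.036, adjusted p = 0.690), and it was below 0 with run 2 alone (-0.033).

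**Figure D3:**
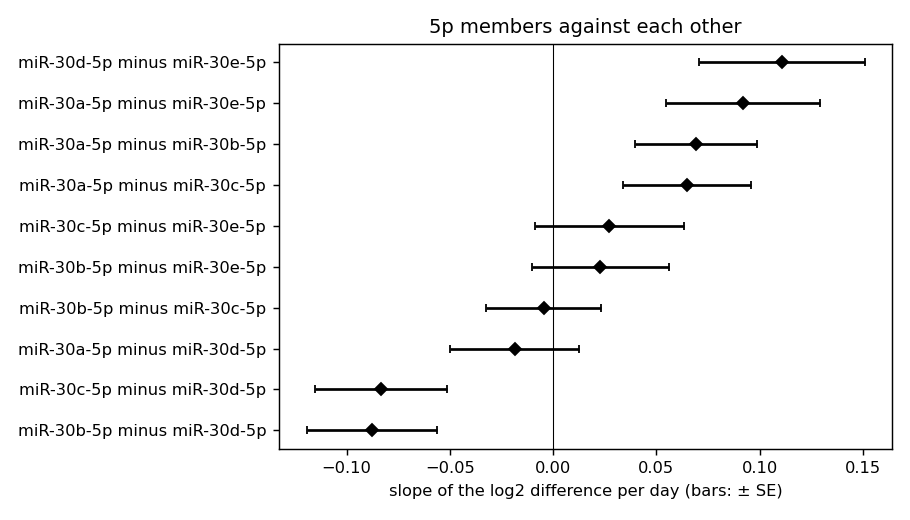
Slope of the log2 difference between each pair of the 5 5p members, in log2 units per day, with bars of ± SE. The 6 pairs that set miR-30a-5p or miR-30d-5p against the other 3 members lie farthest from 0, and none passed the adjusted threshold.

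The 5p arm exceeded the 3p arm in all 16 samples for both hairpins. The ratio of miR-30a-5p to miR-30a-3p on day 14 was 3.01-fold and 2.91-fold in run 2 and 3.78-fold and 2.31-fold in run 1, and on day 17 it was 2.53-fold and 4.84-fold in run 2 and 2.65-fold and 2.10-fold in run 1. miR-30a-3p lay below the low-level median in every run 1 sample. In both run 1 samples of day 14 and in day 17 replicate 2 the 5p arm lay below it too. The run 1 folds of all 4 days are therefore ratios of deposited values and not of levels above that signal. On day 20 the ratio was 4.60-fold and 4.97-fold in run 2 and 4.23-fold and 5.54-fold in run 1. On day 23 it was 5.22-fold and 4.83-fold in run 2 and 4.32-fold and 4.17-fold in run 1. All samples of days 20 and 23 were at or above 4.17-fold, and 1 of the 8 samples of days 14 and 17, day 17 replicate 4, was above that value. In log2 units its means over days 14, 17, 20 and 23 were 1.56 ± 0.29, 1.52 ± 0.52, 2.27 ± 0.17 and 2.21 ± 0.15 (SD, n = 4 each), which are 2.96-fold, 2.87-fold, 4.81-fold and 4.62-fold.

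The miR-30a arm ratio had a slope of 0.089 log2 units per day (SE 0.033, adjusted p = 0.112 by limma), and the exact permutation within runs gave p = 0.0061, or 0.0891 adjusted over the 20706 ratios. It was not called. The slope was 0.091 in run 2 alone and 0.087 in run 1 alone, and it lay between 0.083 and 0.11 when each sample was left out. The 4 samples of day 23 did not overlap those of day 14, which held for 9.76% of all probe pairs. Of the 13 miRNAs measured by both arms it held for 1 (7.69%), which was miR-30a itself. The difference was 0.64 (SE 0.31, adjusted p = 0.244). At that threshold 0.575% of all probe pairs were called. Day 20 did not overlap day 14 either, against 2.85% of all probe pairs, with 0.70 (SE 0.31, adjusted p = 0.665). That held for 2 of the 13 (15.4%), miR-30a among them. miR-30a-3p lay below the median of probes with no bovine gene in 8 of 8 run 1 samples, and subtracting that median moved the slope to 0.54 (adjusted p = 0.0855). The subtraction set miR-30a-3p to 1 in every run 1 sample. It set miR-30a-5p to 1 too in both run 1 samples of day 14 and in day 17 replicate 2. The run 1 part of the 0.54 is thus a 5p level over a fixed value and does not measure an arm ratio.

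The miR-30e arm ratio had no called slope over days either. miR-30e-3p lay below the median of probes with no bovine gene in 4 of 8 run 2 samples and in 8 of 8 run 1 samples, so the folds over it are ratios of deposited values and not of levels above that signal. Day 14 values were 2.20-fold and 1.58-fold in run 2 and 9.87-fold and 6.07-fold in run 1, and day 17 values were 3.89-fold and 3.15-fold in run 2 and 3.38-fold and 5.34-fold in run 1. Day 20 values were 3.80-fold and 2.90-fold in run 2 and 4.67-fold and 5.16-fold in run 1, and day 23 values were 3.97-fold and 3.85-fold in run 2 and 5.13-fold and 5.61-fold in run 1. Day 14 held both the lowest and the highest samples, split by run. The log2 ratio averaged 1.60 ± 0.48 in run 2 and 2.44 ± 0.43 in run 1 (SD, n = 8 each), a difference of -0.84 (SE 0.25, adjusted p = 0.0086 by limma), and 42.8% of all probe pairs differed between runs. That of miR-30a averaged 1.99 ± 0.42 in run 2 and 1.79 ± 0.50 in run 1, a difference of 0.20 (SE 0.22, adjusted p = 0.524). After subtraction of the low-level median these differences were -1.81 (adjusted p = 0.0262) for miR-30e and -0.093 (adjusted p = 0.925) for miR-30a. The subtraction set both 3p arms to 1 in every run 1 sample, and miR-30e-3p also in 4 of 8 run 2 samples. The run 1 ratios are then 5p levels over a fixed value, so these differences cannot compare arm ratios between runs.

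Over days the miR-30e arm ratio had a slope of 0.029 (SE 0.037, adjusted p = 0.678 by limma), with 0.10 in run 2 alone and -0.046 in run 1 alone. Without day 14 replicate 1 it was 0.062 and without day 14 replicate 4 it was 0.0027. The slopes of the 2 hairpins' arm ratios differed by 0.060 per day, which the exact two-sided permutation did not separate from 0 (p = 0.146). That difference was -0.013 in run 2 alone (exact p = 0.843) and 0.13 in run 1 alone (exact p = 0.0437).

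**Figure D4:**
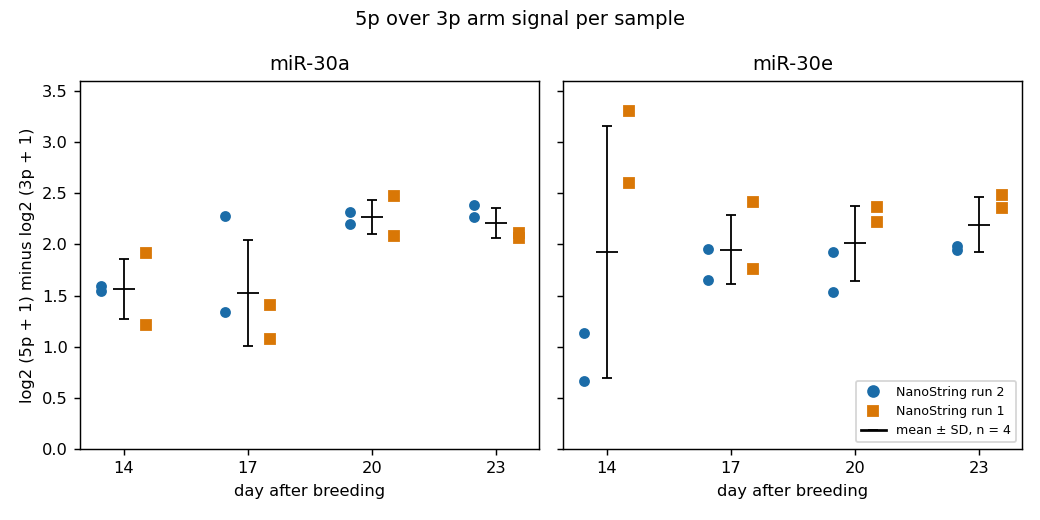
Log2 ratio of the 5p to the 3p arm in each sample by day after breeding, for miR-30a and miR-30e. Circles are run 2, squares run 1, and bars the mean ± SD of 4 samples. The miR-30a ratio is above 2 in all samples of days 20 and 23, and the miR-30e ratio is split by run on day 14.

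Among the other 11 miRNAs with both arms in the table, the 5p arm was the higher by mean in 7. Their arm ratios had slopes of -0.031 to 0.16 log2 units per day with a median of -0.0054, and 0 were called. miR-542, an X-linked miRNA, had the steepest slope at 0.16 (SE 0.050, adjusted p = 0.0761 by limma), followed in size by that of miR-30a. Of those remaining, miR-151a had 0.045 and miR-455 had -0.031, and the slopes nearest 0 were those of miR-125a at 0.00039, miR-299 at -0.0049 and miR-28 at -0.0054. miR-30e ranked 5 of 13 by size of slope.

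Most members differed between the NanoString runs. miR-30d-5p averaged 475 ± 91.2 normalized counts in run 2 and 208 ± 96.8 in run 1 (SD, n = 8 each), and its mean log2 values differed by 1.32 (SE 0.21, adjusted p = 4.2e-05 by limma). miR-30a-5p averaged 422 ± 140 in run 2 and 201 ± 70.6 in run 1, with a difference of mean log2 values of 1.08 (SE 0.22, adjusted p = 0.000276). The differences of miR-30a-3p, miR-30b-5p and miR-30c-5p were 0.88, 0.77 and 0.76 (adjusted p = 0.0011 to 0.0012). miR-30e-3p had 0.43 (SE 0.21, adjusted p = 0.0587) and was not called.

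miR-30e-5p ran the other way. It averaged 210 ± 45.0 in run 2 and 277 ± 52.0 in run 1 (SD, n = 8 each), with a difference of mean log2 values of -0.41 (SE 0.18, adjusted p = 0.0466 by limma). In all 6 of 7 members were called, against 83.3% of all probes. Higher in run 2 were 5 members, against 66.2% of all probes, and lower was 1, against 17.2%. The median over all probes was 0.74, that of probes with a bovine gene of the same name 0.79, and that of the 38 probes with none -0.86. What part low-level signal had in the difference of miR-30e-5p was not tested.

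The call of miR-30e-5p was lost in 11 of the 16 fits that left out 1 sample, where the difference ran from -0.49 to -0.32. Scaling moved the run difference of all probes, to a median of 0.46 with samples centred on their medians, 0.18 after quantile normalization and 1.27 after subtraction of the low-level median. miR-30e-5p had -0.68, -0.85 and 0.35 under these 3 settings, so its sign turned with the subtraction. miR-30b-5p and miR-30c-5p were not called after quantile normalization (0.23 and 0.25, adjusted p = 0.281 and 0.235). Ratios within a sample also differed between runs for miR-30e-5p. The 4 other 5p members relative to it were higher in run 2 than in run 1 by 1.16 to 1.72 log2 units (adjusted p from 1.8e-05 to 0.000417), against 42.8% of all probe pairs called.

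**Figure D5:**
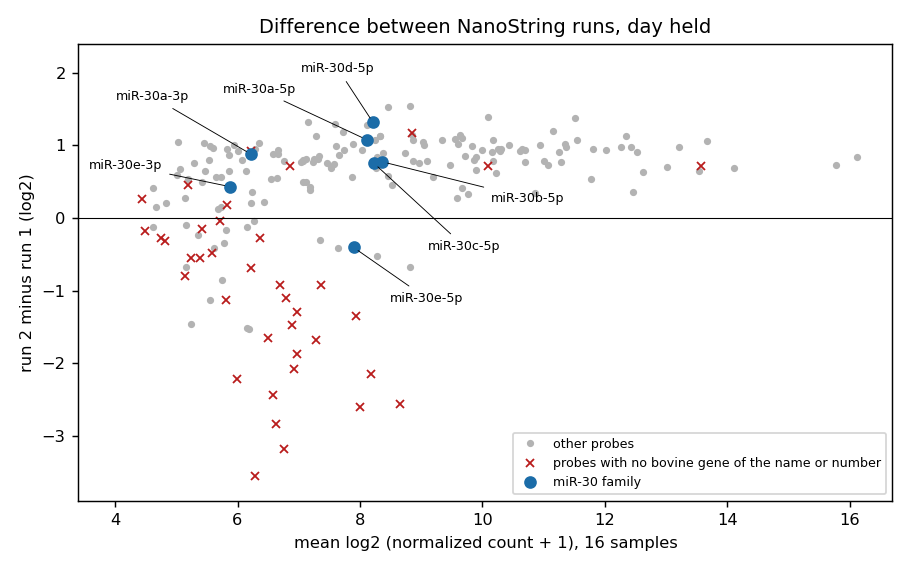
Log2 difference of run 2 minus run 1 for all 204 probes, with day held, against the mean log2 value. Filled circles are miR-30 members, crosses the 38 probes with no bovine gene of the name or number, and small points the other probes. miR-30e-5p at -0.41 is the member below 0.

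The probes outside the family whose pattern was most like the mean of the 5p arms were chosen by the root mean square log2 difference over the 16 samples, centred within runs. They were miR-497-5p at 0.189, miR-107 at 0.217, miR-195-5p at 0.224, miR-22-3p at 0.230 and miR-23b-3p at 0.232, where the median of the 197 other probes was 0.507. The 5p members themselves lay at 0.142 for miR-30b-5p, 0.180 for miR-30c-5p, 0.228 for miR-30a-5p, 0.305 for miR-30d-5p and 0.344 for miR-30e-5p, and each is part of that mean. All 5 outside probes were closer to the mean than miR-30d-5p and miR-30e-5p were. Their day slopes ran from 0.017 for miR-22-3p to 0.075 for miR-497-5p, and none was called (adjusted p from 0.0830 to 0.820 by limma).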

How the data were processed

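The deposited table held normalized counts, a signal that is never negative, for 204 probes and 16 samples. How the authors corrected background and normalized is not given in the sources used here. Per the labels' protocols, total RNA with miRNA was extracted by a kit. The column names matched the sample titles. Low values lay on evenly spaced steps of 0.665 to 2.91 normalized counts with a shift that was not 0, so original counts were not recovered, the depth is unknown, and no count model or counting interval was used.

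Values were transformed as log2(normalized count + 1). All 204 probes passed a filter of at least 20 in at least 4 samples, the 7 members among them. limma 3.58.1 in R 4.3.3 was fitted to all probes and 16 samples with day and run (eBayes with a variance trend), and p-values were adjusted over all 204 probes by the Benjamini-Hochberg method. An adjusted p under 0.05 was called. Ratios were the within-sample log2 differences of all 20706 pairs of probes, fitted without a variance trend and adjusted over all of them. Exact two-sided permutations moved day labels within runs (6350400 arrangements). Scripts used Python 3.11.15 and were tested on simulated data. Named probes were the 7 members, the 5 nearest to the 5p mean, and up to 3 arm ratios nearest to and farthest from slope 0. Probes were matched by name to 1032 bovine miRNA genes (155 by the same name, 11 by the same number, 38 by neither).

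The members, lists and tests were chosen with earlier results of these data known. Run 1 held replicates 1 and 2 of each day and run 2 held replicates 3 and 4, so samples of the same number deviated together (Pearson r across probes 0.193 to 0.810 in 24 pairs), and less so once the run was removed (-0.547 to 0.562). Nothing in the labels says that a number marks a shared animal. Alternatives covered the pseudocount, scaling, filter, run term, spread model, single runs and left-out samples. RNA sequencing was not used here.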

Additional observations from a re-analysis of the deposited data

How the results depend on the processing

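Under settings that kept all 16 samples, or 1 run, or left out a pair of samples chosen after the data were seen (day 14 replicate 1 and day 17 replicate 4), 706 values kept their direction and their side of the threshold. Another 25 turned in sign, and further classes of change held 13, 9 and 2 values. With run 1 alone 2 members were called across the 4 days, 2 by slope, 2 for day 23 against day 14 and 1 for day 20 against day 14, and the order of levels gave 1 call. Of all 204 probes, 40, 9, 40 and 31 were called with run 1 alone in those 4 comparisons of days. By slope 2 were called with samples centred on their medians or quantile normalized, and 1 at a mean of at least 100, a filter that dropped both 3p arms, and 1 was called for day 23 against day 14 with median centring. Over all probes the slope calls were 20 of 204 with median centring, 9 of 204 quantile normalized and 3 of 140 with that filter. Median centring called 6 of 204 for day 23 against day 14. The exact p of the difference between arm ratios was under 0.05 with run 1 alone (0.13).

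Signs turned as follows, and the cause was not tested. With run 2 alone the slopes were -0.011 for miR-30b-5p, -0.017 for miR-30c-5p and -0.042 for miR-30a-3p, the day 23 against day 14 differences -0.020, -0.090 and -0.30, and the ratio slopes 0.0062 for miR-30b-5p minus miR-30c-5p, -0.027 for miR-30b-5p minus miR-30e-5p, -0.033 for miR-30c-5p minus miR-30e-5p and -0.013 for the difference between arm ratios. With run 1 alone the slopes were -0.015 for miR-30e-5p, 0.031 for miR-30e-3p and -0.046 for the miR-30e arm ratio, and the day 23 differences -0.20 and 0.32 for miR-30e-5p and miR-30e-3p. A pseudocount of 20 gave slopes of -3.22e-05 for miR-30e-5p and -0.0012 for miR-30a-3p. Subtraction of low-level signal gave miR-30a-3p -0.16 by slope and -1.42 for day 23, miR-30e-5p 0.35 between runs and miR-30a-5p minus miR-30e-5p -0.52 in the order of levels. It set miR-30a-3p to 1 in every run 1 sample, so the -0.16 and -1.42 rest on run 2. Without the pair of samples the slopes were -0.021 for miR-30a-3p, 0.0019 for miR-30b-5p minus miR-30c-5p and -0.0017 for miR-30c-5p minus miR-30e-5p, and the differences -0.12 for miR-30a-3p on day 23 and -0.14 for miR-30a-5p on day 17.

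With each sample left out in turn there were 0 to 1 calls by slope, 0 to 1 for day 23 against day 14 and 5 to 7 between runs. Over all 204 probes the calls were 0 to 11, 0 to 10 and 159 to 170 in the same order. Slopes ran from -0.0095 to 0.017 for miR-30e-5p, -0.025 to 0.022 for miR-30a-3p, -0.018 to 0.0033 for miR-30b-5p minus miR-30c-5p, -0.0017 to 0.040 for miR-30b-5p minus miR-30e-5p and -0.0026 to 0.044 for miR-30c-5p minus miR-30e-5p. Day 23 against day 14 ran from -0.051 to 0.24 for miR-30e-5p, -0.11 to 0.41 for miR-30a-3p and -0.38 to 0.031 for miR-30e-3p, and miR-30a-5p on day 23 against day 20 from -0.022 to 0.23. The samples share only a number, which follows the run. With that number as a replicate block in place of run, 0 members were called by slope (miR-30d-5p adjusted p = 0.0583, miR-30a-5p 0.0689) and none for any pair of days. Low-level signal limits the 3p arms in run 1, and 4 samples a day limit every comparison of days.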
